A study of Mus musculus with 6 samples.

Results

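The plasma cell program is described here by 10 genes of the 49568 gene symbols in the count table. These genes were chosen by symbol, with earlier results of these data known, so counts of them called are a description. They are Prdm1, Irf4, Xbp1, Eaf2, Mzb1, Derl3, Fkbp11, Creld2, Sdc1 and Slamf7. Bulk RNA-sequencing counts from whole lungs of 3 TNF+ and 3 TNF- mice were compared, with 1 library for each animal. The TNF+ animals (TNF-Tg) overexpress 1 copy of the human TNF gene and develop chronic arthritis and pulmonary vascular disease. The TNF- animals were WT littermates. Both groups were 4-month-old females on a C57BL/6 background. A whole lung holds every lung cell type, so the values are averages over the tissue, and p-values measure the spread between these 6 mice.

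Plasma cells are the end stage of the B cell lineage and secrete antibody. Their formation starts when the transcription factors IRF4 and BLIMP1 (encoded by Prdm1) silence the B cell program, and XBP1 then enlarges the endoplasmic reticulum (ER), where antibody is folded. In the lung, plasma cells gather around airways and vessels, and in lymphoid aggregates that form under chronic inflammation. Several of the 10 genes are also used by other cells, among them secretory epithelium (Xbp1, Creld2, Sdc1) and T cells, macrophages and dendritic cells (Irf4, Prdm1, Slamf7).

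The total counts per lung were between 25396923 and 32529408, and every member had at least 23 counts in every lung. In TNF+ replicate 1, 5.22% of the counts lay on Gm42418, against at most 0.274% in each other lung. TNF- replicate 1 held nearly all counts of the squamous epithelial markers, with a summed level of 104192 normalized counts against 66.1 and 101 in the other TNF- lungs. Of these 8 markers, 3 were tested and 1, Krt5, was called (log2 fold change -6.54, beside 23.4% of all genes tested called lower), a call lost without any 1 of the TNF+ lungs (highest edgeR adjusted p = 0.0735), and its value was -2.16 without TNF- replicate 1. A normalized count is the raw count rescaled to a common library size after TMM. Lung epithelial markers were present in all lungs, with Sftpc, Scgb1a1, Cdh1 and Epcam detected in each. Mouse Tnf had 106, 213 and 405 counts in TNF+ lungs and 16, 14 and 35 in TNF- lungs. The transgene is human, so these counts do not check it directly.

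In TNF+ lungs, 8 of the 10 genes rose and 2 did not pass the test (edgeR's quasi-likelihood test, adjusted p under 0.05 with Benjamini-Hochberg adjustment over all 19199 genes tested). The genes that rose were Derl3, Mzb1, Slamf7, Eaf2, Irf4, Prdm1, Xbp1 and Creld2, while Sdc1 and Fkbp11 were not called, and no member fell. Of all genes tested, 24.0% were called higher and 47.4% were called in either direction. The lungs of the groups did not overlap for the same 8 genes, each higher in TNF+. Of all genes tested, 30.5% were separated with TNF+ above and 28.2% with TNF+ below. The median log2 fold change of the 10 genes was 1.43, against 0.03 for all genes tested. All 10 members passed the filter on low counts. More plasma cells and more RNA per cell cannot be told apart in bulk tissue.

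**Figure D1:**
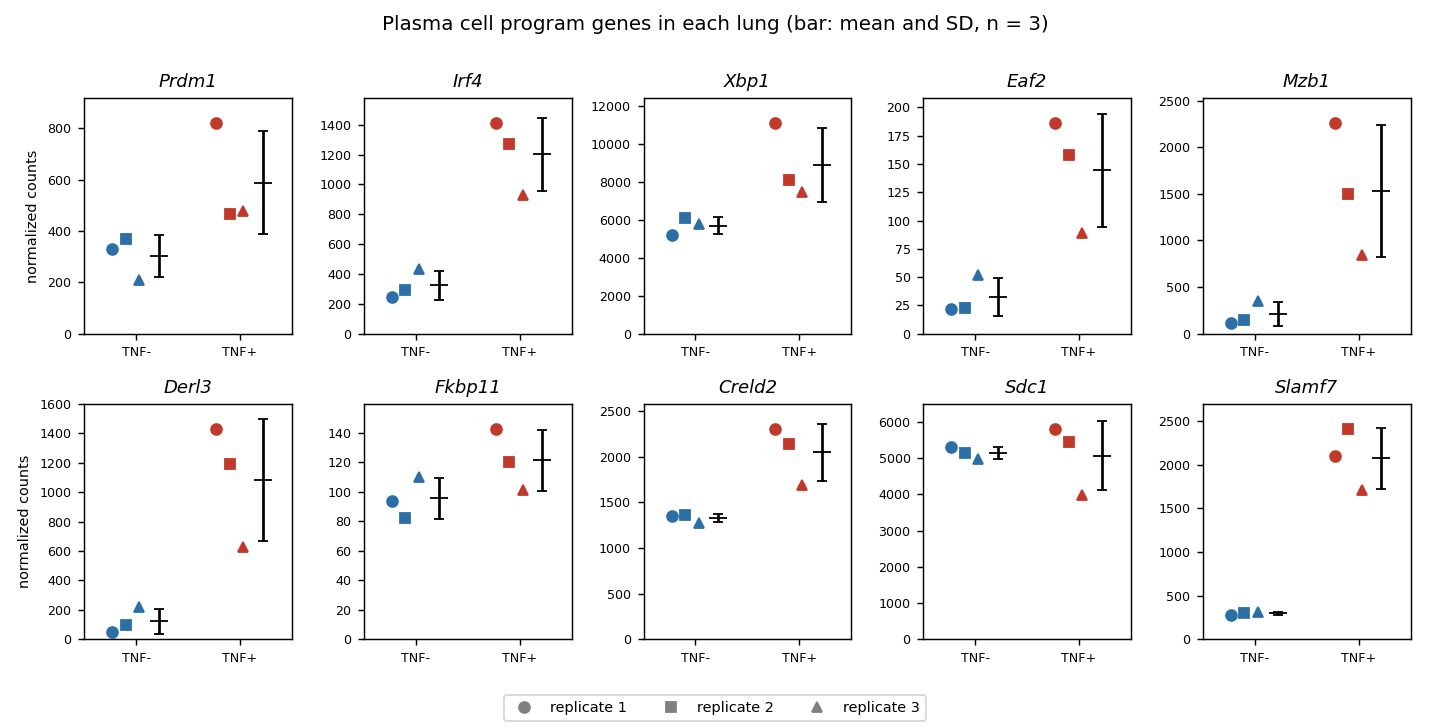
Normalized counts of each gene (linear axes from 0) in the 3 TNF- (blue) and 3 TNF+ (red) lungs, with a marker shape for each replicate number and black bars for the mean and SD. The groups do not overlap in 8 panels, and they overlap for Fkbp11 and Sdc1.

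**Figure D2:**
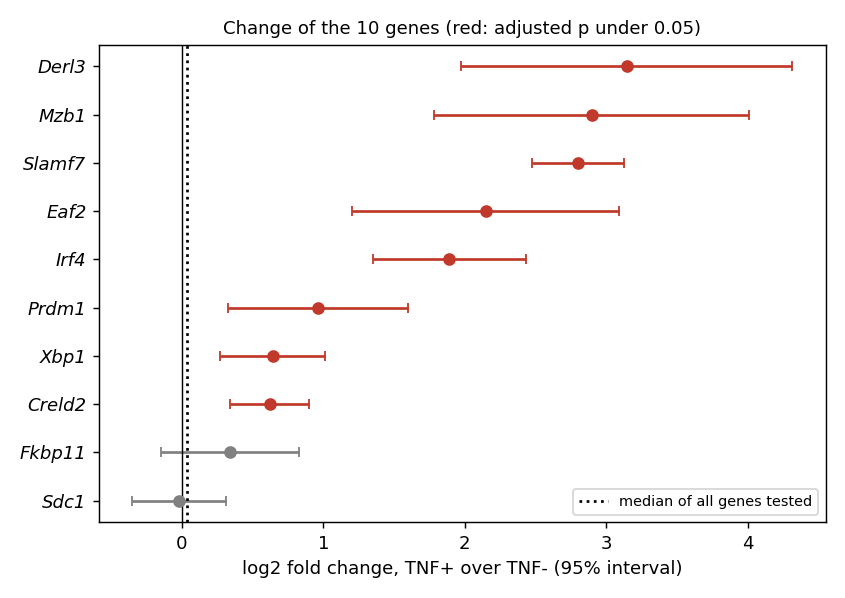
Log2 fold change of each gene, TNF+ over TNF-, from edgeR with its 95% interval (red, adjusted p under 0.05; grey, not called). The values run from -0.02 for Sdc1 to 3.14 for Derl3, and the dotted line at 0.03 is the median of all genes tested.

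The transcription factors of the program rose by different amounts. Irf4 (chromosome 13 of GRCm38, 30749226 to 30766976) encodes the factor whose level decides between germinal center and plasma cell fate. It had 1409.5, 1269 and 933 normalized counts in TNF+ lungs and 246, 293 and 433 in TNF- lungs. The TNF+ lungs all lay above the highest TNF- lung, replicate 3, and the log2 fold change was 1.89 (standard error 0.24, a 3.71-fold rise, adjusted p = 0.000407 by edgeR). Prdm1 (chromosome 10, 44437177 to 44528501) encodes BLIMP1, the repressor that ends the B cell program. Its normalized counts were 819, 466 and 477 in TNF+ lungs and 328, 367 and 209.7 in TNF- lungs. TNF+ replicate 1 stood well above the other TNF+ lungs, and the fitted difference was 0.96 on the log2 scale (standard error 0.28, adjusted p = 0.0216 by edgeR). The call rested on single lungs. Without TNF+ replicate 1 the log2 fold change was 0.61 (edgeR adjusted p = 0.0814), and without TNF- replicate 3 it was 0.75 (edgeR adjusted p = 0.0506).

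Xbp1 (chromosome 11, 5520659 to 5525893) encodes the factor that drives expansion of the secretory apparatus after its mRNA is cut and rejoined by IRE1. It had 11093, 8109.7 and 7468 normalized counts in TNF+ lungs and 5201, 6099 and 5797 in TNF- lungs. The groups did not overlap, and TNF+ replicate 1 was again the highest lung. The log2 fold change was 0.64 (standard error 0.16, 1.56-fold, adjusted p = 0.0121 by edgeR). Without TNF+ replicate 1 it was 0.42 and still called (edgeR adjusted p = 0.0379), and without TNF+ replicate 1 and TNF- replicate 1 together it was 0.35 and not called (edgeR adjusted p = 0.131). Counts per gene do not separate the spliced mRNA of Xbp1, which encodes the active factor, from the unspliced mRNA. Eaf2 (chromosome 16, 36792884 to 36875003) encodes a partner of the ELL elongation factors. It had the lowest counts of the members in TNF- lungs. Its values were 186, 158 and 88.7 normalized counts in TNF+ lungs against 22.0, 23.0 and 51.5 in TNF- lungs. The groups did not overlap, and the rise was 4.44-fold (log2 2.15, standard error 0.41, adjusted p = 0.0034 by edgeR).

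Among the ER genes, Derl3 and Mzb1 rose most. Derl3 (chromosome 10, 75893413 to 75895941) encodes a derlin, a membrane protein that helps to pass misfolded proteins out of the ER for degradation. Its normalized counts were 1429, 1194 and 624 in TNF+ lungs and 51.6, 97.8 and 216 in TNF- lungs. The lowest TNF+ lung stood clearly above the highest TNF- lung. The log2 fold change was 3.14 (standard error 0.51, 8.85-fold, adjusted p = 0.00151 by edgeR), the largest of the 10 genes. Mzb1, on chromosome 18, encodes an ER chaperone of B lineage cells that assists in antibody assembly. It had 2256, 1498 and 844 normalized counts in TNF+ lungs and 114, 149.5 and 352 in TNF- lungs. The groups did not overlap, and TNF- replicate 3 was the highest TNF- lung. The log2 fold change was 2.90 (standard error 0.48, 7.45-fold, adjusted p = 0.00176 by edgeR). In the GENCODE M21 annotation, 57.2% of the exon bases of Mzb1 are shared with a gene model named SPATA24 on the same strand, so its counts depend on how such reads were assigned. The separate symbol Spata24 in the table was not called (log2 fold change -0.61, edgeR adjusted p = 0.0796).

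Creld2 (chromosome 15, 88819646 to 88826683) encodes a disulfide isomerase-like protein that is induced when unfolded proteins accumulate in the ER. It had 2303.5, 2141 and 1695 normalized counts in TNF+ lungs and 1352, 1360.0 and 1279 in TNF- lungs. The TNF- lungs were tightly grouped, and the log2 fold change was 0.62 (standard error 0.12, 1.54-fold, adjusted p = 0.00382 by edgeR). Fkbp11 (chromosome 15, 98724366 to 98728198) encodes a peptidyl-prolyl isomerase of secretory cells. Its normalized counts were 142, 119.96 and 101 in TNF+ lungs against 93.6, 82.4 and 110.2 in TNF- lungs, and the groups overlapped. The log2 fold change was 0.34 with a 95% interval from -0.15 to 0.83 (edgeR adjusted p = 0.219), so a rise of the size seen for Creld2 or Xbp1 lies within its interval.

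The promoters of the members were read from RefSeq (GRCm38.p6), 250 bases before and 50 after each start. The table held 12 promoters of 9 members, and none of Mzb1. The ER stress response element (ERSE), the letters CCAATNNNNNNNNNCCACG on either strand, is bound by NF-Y together with ATF6 or XBP1. It was found in 0.119% of all 32851 promoters (39 of them) and in those of 2 members, Derl3 and Creld2. The 2 elements are shown beside those of Hspa5 and Hsp90b1, which encode the ER chaperones BiP and GRP94, because these genes share the element and had different log2 fold changes. Each is written 5′ to 3′ on the strand that holds it, with the fixed letters of the motif in capitals.
Derl3 (chr10:75893242-75893260, minus strand): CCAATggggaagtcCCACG
Creld2 (chr15:88819520-88819538, minus strand): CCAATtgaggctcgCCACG
Hspa5 (chr2:34772025-34772043, plus strand): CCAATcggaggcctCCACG
Hsp90b1, first (chr10:86705638-86705656, minus strand): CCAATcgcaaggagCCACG
Hsp90b1, second (chr10:86705533-86705551, plus strand): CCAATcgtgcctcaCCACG
The elements lay 156 to 138 bases before the start of Derl3, 126 to 108 before that of Creld2 and 65 to 47 before that of Hspa5, and those of Hsp90b1 lay 212 to 194 and 107 to 89 before its start. The 250 bases before the start are given for both members on the strand of the gene, so that the surrounding sequence can be read, and capitals mark the 19 bases of the element, which here appears as its reverse complement.
Derl3 (chr10:75893148-75893397, plus strand): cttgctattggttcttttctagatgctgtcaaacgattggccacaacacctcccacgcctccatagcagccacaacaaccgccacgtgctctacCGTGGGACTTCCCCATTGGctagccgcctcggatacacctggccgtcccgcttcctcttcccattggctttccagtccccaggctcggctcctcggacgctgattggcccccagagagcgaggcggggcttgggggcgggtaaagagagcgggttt
Creld2 (chr15:88819396-88819645, plus strand): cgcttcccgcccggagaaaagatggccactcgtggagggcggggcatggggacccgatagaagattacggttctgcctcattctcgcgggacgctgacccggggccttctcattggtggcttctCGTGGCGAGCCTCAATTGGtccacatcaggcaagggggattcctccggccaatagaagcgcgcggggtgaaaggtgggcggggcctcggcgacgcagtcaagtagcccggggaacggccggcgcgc
The unfolded protein response element TGACGTGG was in 0.676% of all promoters and in 0 of the 12 member promoters. Its inner letters GACGTG alone were in 6.38% of all promoters and in those of Eaf2 and Fkbp11. With the same ERSE letters, the log2 fold change was 3.14 for Derl3 and 0.62 for Creld2, while that of Hspa5 was 0.28 and not called (edgeR adjusted p = 0.142). Hsp90b1 rose by 0.40 on the log2 scale (adjusted p = 0.0236 by edgeR), and its call was lost without TNF+ replicate 1, TNF- replicate 2 or TNF- replicate 3 (highest edgeR adjusted p = 0.125) and with the replicate block (edgeR adjusted p = 0.0521).

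The surface genes went apart. Slamf7 (chromosome 1, 171632403 to 171653035) encodes a receptor found on plasma cells and also on NK cells, macrophages and dendritic cells. It had 2096, 2408.5 and 1712 normalized counts in TNF+ lungs and 280.0, 304 and 307 in TNF- lungs. The TNF- lungs were close together and far below the TNF+ lungs. The rise was 6.98-fold (log2 2.80, standard error 0.14), with the smallest adjusted p of the members, 6.5e-06 by edgeR. An antisense gene, Gm37787, shares 9.24% of the exon bases of Slamf7 and had at most 5 counts in any lung. Sdc1 (chromosome 12, 8771323 to 8793715) encodes syndecan-1 (CD138), the proteoglycan by which plasma cells are sorted and which is also abundant on epithelium. Its normalized counts were 5806, 5435 and 3983 in TNF+ lungs and 5299, 5154 and 4976 in TNF- lungs, so the groups overlapped. The log2 fold change was -0.02 (standard error 0.14, edgeR adjusted p = 0.923), with a 95% interval from -0.35 to 0.31.

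Sdc1 is also an epithelial gene, and lung epithelial markers fell. Of the 8 markers, 7 were lower in TNF+ lungs and 0 were higher (23.4% of all genes tested were called lower), with a summed level of 422209 to 555949 normalized counts in TNF+ and 839471 to 1078890 in TNF- lungs. Cdh1, which encodes E-cadherin, had a log2 fold change of -1.51, the mucin gene Muc5b one of -2.90 and the club cell gene Scgb1a1 one of -1.77. Against Epcam in the same lung, the log2 ratio of Sdc1 was 3.15, 3.13 and 2.84 in TNF+ lungs and 2.71, 2.72 and 2.52 in TNF- lungs. The groups did not overlap, with a mean difference of 0.39 (exact two-sided permutation test, p = 0.1, the smallest p for 3 lungs against 3; p = 0.133 adjusted over 4 ratios). Against the mean of all 8 epithelial markers the difference was 1.34 (exact permutation test, p = 0.1). The part of the epithelial markers' fall in the Sdc1 value was not tested. Without TNF- replicate 1, the lung with squamous genes, the Sdc1 log2 fold change had the same sign and was not called.

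The levels of the members were compared per length, as TMM-scaled CPM per kilobase of exon. In TNF- lungs, Xbp1 was the highest at 58.1, before Sdc1 at 44.7 and Creld2 at 32.2. All other members lay between 0.244 (Eaf2) and 5.58 (Mzb1). In TNF+ lungs the order was Xbp1 (90.6), Creld2 (49.6), Sdc1 (44.1), Mzb1 (41.7), Derl3 (17.97), Slamf7 (14.98), Irf4 (8.12), Prdm1 (3.48), Fkbp11 (1.48) and Eaf2 (1.09). Mzb1 thus came from a level well under that of Sdc1 to one near it. Its level per length depends on how reads on the 57.2% of its exon bases shared with SPATA24 were assigned. In TNF+ lungs, Creld2, Sdc1 and Mzb1 did not differ beyond their SDs of 7.62, 8.37 and 19.2, nor did Derl3 and Slamf7 (SD 6.88 and 2.52). In TNF- lungs, Irf4, Slamf7, Derl3 and Prdm1 lay between 1.79 and 2.19, within their spread.

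The members also differed in how far the lungs of one group lay apart. In TNF- lungs, the highest normalized count was 4.18 times the lowest for Derl3, 3.09 times for Mzb1 and 2.34 times for Eaf2, but 1.09 times for Slamf7 and 1.06 times for Creld2 and Sdc1. For 6 of the 10 members, Derl3, Mzb1, Eaf2, Irf4, Fkbp11 and Slamf7, the highest TNF- lung was replicate 3, by a small margin for Slamf7. In that lung, all 12 immunoglobulin constant genes and 11 of 14 other plasma cell genes had their highest TNF- level as well, and so did 8 of 12 B cell genes and 4 of 6 myeloid markers. Prdm1, Sdc1 and Creld2 were lowest among TNF- lungs there. Scaled by total counts alone, TNF- replicate 3 was the highest TNF- lung for 7 members and the lowest for 1. Within TNF+ lungs, 9 of the 10 members were highest in replicate 1 and 9 were lowest in replicate 3. Scaled by total counts alone, these numbers were 7 and 8. The exception at the top was Slamf7, highest in replicate 2, where 5 of 6 myeloid markers were highest too. Of the 14 other plasma cell genes, 11 were highest in TNF+ replicate 1 and 12 were lowest in TNF+ replicate 3. For the 12 B cell genes these counts were 3 and 4. The same shares over all genes were not computed. These orders rest on 3 lungs a group and are a description. Without TNF- replicate 3, the log2 fold changes were 3.84 for Derl3, 3.53 for Mzb1 and 2.66 for Eaf2.

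**Figure D3:**
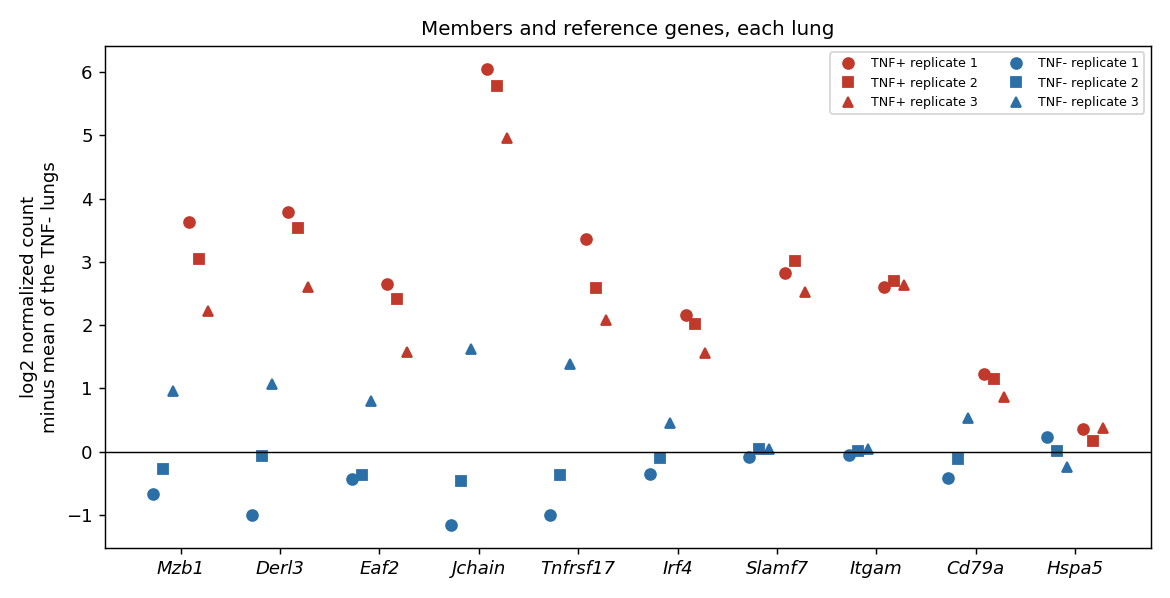
Log2 normalized count of members and reference genes in each lung, minus the mean of the 3 TNF- lungs (red, TNF+; blue, TNF-; marker shape, replicate). TNF- replicate 3 (blue triangles) is the highest TNF- lung for Mzb1, Derl3, Eaf2, Jchain, Tnfrsf17 and Irf4, while Slamf7 and the myeloid gene Itgam show little spread in TNF- lungs. Of the 6 myeloid markers, Itgam had the smallest TNF- spread (highest over lowest lung 1.06, against up to 1.33 for Fcer1g).

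Over the 6 lungs, the genes most like Mzb1 were named by the root mean square difference of log2 CPM, centred for each gene, among genes whose mean log2 CPM reached 1. The nearest were Igkv5-45 (0.20) and Igkv6-32 (0.22), variable segments of the kappa light chain. Derl3 was the third (0.25), followed by the pattern recognition receptor gene Cd14 (0.36) and by Ly9 (0.38), which encodes a receptor of the same family as Slamf7. Eaf2 ranked 10 (0.45), Slamf7 83 and Irf4 141. Prdm1, Xbp1, Creld2, Fkbp11 and Sdc1 ranked between 1899 and 7290. All 5 nearest genes were called higher in TNF+ lungs, and the 6 values of each gene include that difference between the groups.

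Other genes of plasma cells, a list of 14 that are no members, gave 12 higher, 0 lower and 2 not called in TNF+ lungs (24.0% of all genes tested were called higher), with a median log2 fold change of 1.32. Jchain, which encodes the chain that joins IgA and IgM into polymers, had 116172, 96163 and 54453 normalized counts in TNF+ lungs and 783, 1263 and 5392 in TNF- lungs. The rise, 5.16 on the log2 scale (standard error 0.77, adjusted p = 0.00103 by edgeR), was larger than the value of every member. Tnfrsf17, the gene of the survival receptor BCMA, had 216, 127 and 89.7 against 10.5, 16.3 and 55.1 normalized counts, a log2 fold change of 2.38 (adjusted p = 0.0114 by edgeR, and 0.0532 without both replicates numbered 1). Pou2af1, which encodes a B lineage coactivator, had a log2 fold change of 2.27 (adjusted p = 0.000585 by edgeR). Fam46c (now Tent5c) and Cd93 were the genes not called, at 0.45 and -0.31. Of the 12 immunoglobulin constant genes, 11 rose, led by Ighg1 (log2 fold change 6.78), Ighg2c (6.51) and Ighg2b (6.02). Ighm (4.98), Igkc (4.55) and Igha (3.77) rose too, and Ighd, the constant gene of naive B cells, was not called (0.19). Igha had 2487, 3223 and 31630.5 normalized counts in TNF- lungs, and without TNF- replicate 3 its log2 fold change was 5.89. Without the same lung the values were 6.43 for Jchain, 3.40 for Tnfrsf17, 5.83 for Igkc, 7.56 for Ighg1, 7.34 for Ighg2c and 6.80 for Ighg2b, and without TNF+ replicate 2 that of Ighm was 4.19. All of these stayed called.

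B cell genes, a list of 12, moved less. In TNF+ lungs 6 were higher, 2 were lower and 4 were not called, beside 24.0% higher and 23.4% lower among all genes tested, with a median log2 fold change of 0.62. Cd72 (1.31), Cd22 (1.04) and Cd79a (1.04), all genes of the B cell surface, had the largest changes. The transcription factors of the list differed among themselves. Ebf1, which acts early in setting B cell identity, had 468, 611 and 660 normalized counts in TNF+ lungs and 323, 256 and 317 in TNF- lungs. The groups did not overlap, and it rose by 0.96 on the log2 scale (standard error 0.17, adjusted p = 0.00207 by edgeR), a call kept with each lung left out. Pax5, which sets B cell identity and is repressed by BLIMP1, had 419, 423 and 617 normalized counts in TNF+ lungs and 309.6, 379 and 495 in TNF- lungs. The groups overlapped, with a log2 fold change of 0.30 and a 95% interval from -0.19 to 0.80 (edgeR adjusted p = 0.281). Bach2, a repressor of Prdm1, had 426, 485 and 414 against 725, 666 and 526 normalized counts and fell by 0.53 on the log2 scale (adjusted p = 0.018 by edgeR). Bcl6, the germinal center factor that opposes BLIMP1, fell by 0.31 on the log2 scale (adjusted p = 0.0427 by edgeR). Both calls were lost without TNF+ replicate 1, TNF- replicate 1 or TNF- replicate 2, and that of Bcl6 also without TNF+ replicate 2 (highest edgeR adjusted p = 0.0611 for Bach2 and 0.132 for Bcl6). With each lung left out, the log2 fold change ran from -0.66 to -0.46 for Bach2 and from -0.36 to -0.24 for Bcl6. With the replicate block, the adjusted p of Bcl6 was 0.0663 by edgeR.

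Within each lung, the log2 ratio of Mzb1 to Cd79a was -0.62, -1.13 and -1.68 in TNF+ lungs and -3.27, -3.18 and -2.60 in TNF- lungs. The groups did not overlap and differed by a mean of 1.87 (exact two-sided permutation test, p = 0.1, the smallest possible; p = 0.133 adjusted over 4 ratios). Mzb1 differed between the groups by more than Cd79a in these lungs, at the smallest p that the exact permutation test can give.

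The general genes of ER folding and stress, used by all secretory cells, showed smaller changes than Derl3 and Mzb1. Of 25, 8 were higher, 0 were lower and 17 were not called, beside 24.0% called higher among all genes tested, with a median log2 fold change of 0.22. Sdf2l1 (1.24), Edem2 (1.20) and Sec61b (1.03), genes of ER folding, ER degradation and protein import, rose most. The number of higher genes was 4 without TNF+ replicate 1, 5 without TNF- replicate 1 or TNF- replicate 3, and 5 with the replicate block. It was 3 without both replicates numbered 1. Hspa5 had 13607, 11945 and 13819 normalized counts in TNF+ lungs and 12576, 10780.0 and 8977 in TNF- lungs, and the groups overlapped. The log2 ratio of Derl3 to Hspa5 was -3.25, -3.32 and -4.47 in TNF+ and -7.90, -6.77 and -5.37 in TNF- lungs, a mean difference of 3.00 (exact two-sided permutation test, p = 0.1, the smallest possible; adjusted p = 0.133). That of Creld2 to Hspa5 differed by 0.31, and the groups overlapped (exact permutation test, p = 0.3). With each lung left out this difference was 0.21 to 0.48, and against the mean of the whole ER list it was 0.33 (exact permutation test, p = 0.1, the smallest possible).

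Partners and regulators of XBP1 and of stress responses, a list of 8, gave 2 higher, 2 lower and 4 not called, shares near the 24.0% higher and 23.4% lower of all genes tested. The count of higher genes was 1 without TNF+ replicate 1, TNF+ replicate 2 or TNF- replicate 2 and with the replicate block, where Atf6b, which encodes a relative of ATF6, lost its call (highest edgeR adjusted p = 0.0836). Ern1, which encodes the IRE1 enzyme that splices the Xbp1 mRNA, had a log2 fold change of 0.07 (edgeR adjusted p = 0.676). Zc3h12a, which encodes an RNase that limits inflammatory mRNAs, rose by 1.37 on the log2 scale. Hsf1, the heat shock factor gene, had a log2 fold change of -0.50, and Ern2, the epithelial paralog of Ern1, one of -1.76. Ern2 lost its call without replicate 3 of either group (highest edgeR adjusted p = 0.0585).

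**Figure D4:**
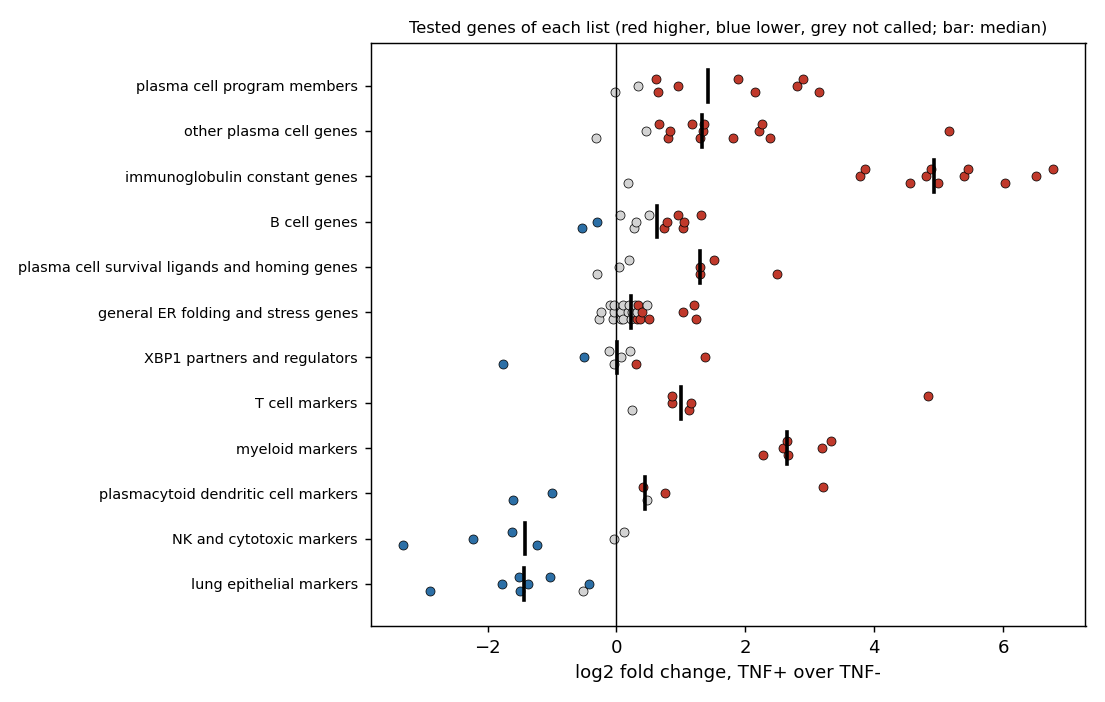
Log2 fold change, TNF+ over TNF-, of each tested gene in the members and 11 other lists (red, higher; blue, lower; grey, not called; black bar, list median). The medians were 1.43 for the members, 1.32 for other plasma cell genes, 0.62 for B cell genes and 0.22 for general ER genes.

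Markers of other cells that can hold Irf4, Prdm1, Slamf7 or Mzb1 moved as well, and their counts stand beside 24.0% higher and 23.4% lower among all genes tested. Of 6 myeloid markers, 6 were higher in TNF+ lungs, with summed levels of 66647 to 82413 normalized counts against 11029 to 11570 in TNF- lungs. Their median log2 fold change was 2.65, led by the macrophage genes Cd68 (3.33), Adgre1 (3.20) and Csf1r (2.66). Of 6 T cell markers, 5 were higher, and their summed level was 10363 to 14932 against 1293 to 2372. The call of Cd3d was lost in 5 of 6 fits without a lung (highest edgeR adjusted p = 0.106), and 3 of the 6 markers were called without both replicates numbered 1. In TNF+ lungs the summed T cell level lay mostly on Cd4, which some macrophages also express (8082 to 12313 normalized counts, against 279 to 557 in TNF- lungs, log2 fold change 4.84), while the T cell receptor genes Trac and Cd3g changed by 1.16 and 1.13. Plasmacytoid dendritic cell markers gave 3 higher and 2 lower of 6, with summed levels of 6352 to 7506 against 4744 to 5597. Most of that sum lay on Tcf4 (mean 4283 normalized counts in TNF+ and 2553 in TNF- lungs) and Bst2 (2038 and 1532). Siglech had means of 65.4 and 46.7 and was not called. The largest changes in this list were those of Ccr9 (3.21) and Klk1 (-1.60, whose call was lost in 5 of 6 fits without a lung), and Cox6a2 was also lower. Of 6 NK and cytotoxic markers, 4 were lower and 0 were higher, with sums of 728 to 774 against 1361 to 1866. The largest changes there were Gzma (-3.31), Ncr1 (-2.22) and Gzmb (-1.62). The part of these cells in the change of Irf4, Prdm1, Slamf7 and Mzb1 was not tested.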

How the data were processed

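The authors extracted RNA from whole lungs, prepared stranded poly(A) libraries, and deposited raw counts per gene symbol for 6 lungs, not normalized. The submitters' processing notes name Trimmomatic (0.36), STAR (2.5.2b), GRCm38.p5 and featureCounts. The strand setting and annotation are not given in the sources used here. Groups and replicate numbers came from the sample titles. All 6 columns were used.

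For the 6 lungs, genes passing filterByExpr were scaled by TMM and fitted in edgeR 4.0.16 (R 4.3.3), where a quasi-likelihood test compared the genotypes without covariates. P-values were adjusted by Benjamini-Hochberg, with a threshold of 0.05. The standard error is the log2 fold change divided by the square root of F. Log2 CPM used a prior count of 2, and ratios per lung a pseudocount of 1. Exon lengths came from GENCODE M21. At these depths 3 counts equal 0.0922 to 0.118 CPM. Alternatives were DESeq2 (1.42.0), limma-voom (limma 3.58.1), other normalizations and filters, robust dispersion, a replicate block, a minimum fold change and left-out lungs. The programs were tested on simulated data.

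The members and lists were chosen with earlier results of these data known. Named genes are the 10 members, up to 3 called genes with the largest changes in each list, a short set (Jchain, Tnfrsf17, Pou2af1, Pax5, Bach2, Bcl6, Cd79a, Hspa5, Ern1, Igha, Ighm and Igkc) and the 5 genes most like Mzb1. Genes outside this rule were named after their values were seen. The lists were those of plasma cells, immunoglobulin constants, B cells, germinal center, survival and homing, ER, XBP1 partners and regulators, and lung epithelial, squamous, T, NK, myeloid and plasmacytoid dendritic cell markers.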

Additional observations from a re-analysis of the deposited data

How the results depend on the processing

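The number of members called higher was 8 with limma-voom, DESeq2, its size factors in edgeR, unscaled totals, TMM without Gm42418, both other filters, robust dispersion and the replicate block, and 7 to 8 with each lung left out. It was 5 where a change of at least 1 on the log2 scale was also asked for, when Prdm1, Xbp1 and Creld2 fell short, and 6 without both replicates numbered 1, an alternative chosen after seeing the data, which lost Prdm1 and Xbp1. No member was called lower in any of these settings. Derl3, Mzb1, Eaf2, Irf4 and Slamf7 kept their call in all 17 alternatives, and Sdc1 and Fkbp11 were called in none. With each lung left out, the log2 fold change ran from 2.75 to 3.84 for Derl3, 2.47 to 3.53 for Mzb1, 0.42 to 0.74 for Xbp1 and -0.16 to 0.11 for Sdc1, positive without TNF+ replicate 3. Over all genes, 4320 passed with the minimum fold change, against 9096, and 7347 to 9164 with each lung left out. With the replicate number as a block, 7686 genes and 8 members were called. Same-numbered lungs did not deviate together (correlations of -0.15, -0.0043 and -0.24 across genes), no TNF+ lung correlated best with its own number, and among the genes named with values the block lost the calls of Bcl6, Hsp90b1 and Atf6b. With the block, an exact sign-flip test gave p = 0.25 for the ratios to Cd79a and Epcam and that of Derl3 to Hspa5. This is the smallest p that test can give, so it cannot show whether pairing weakens them. The 4 ratios kept their direction in all alternatives.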

Other observations

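Genes that guide and keep plasma cells in tissue, a list of 9 of which 7 were tested, gave 4 higher and 0 lower in TNF+ lungs, beside 24.0% higher and 23.4% lower among all genes tested. Ccr10, the homing receptor of IgA plasma cells, rose by 2.497 on the log2 scale (standard error 0.68, adjusted p = 0.0171 by edgeR), and its call was lost without TNF+ replicate 1 or TNF- replicate 2 (highest edgeR adjusted p = 0.0599). Its value was 3.83 without TNF- replicate 3. Cxcr3 (1.51) and Cxcr4 (1.30), receptors of plasmablasts and of many other leukocytes, rose, as did the CXCR4 ligand gene Cxcl12 (1.29). The survival ligand genes Tnfsf13 (APRIL) and Tnfsf13b (BAFF) were not called, at 0.04 and 0.19. Il6 and Il21 were under the filter on low counts with all 6 lungs, at 24, 5 and 12 counts of Il6 in TNF+ lungs against 2, 3 and 5 in TNF- lungs, and 14, 11 and 5 counts of Il21 against 1, 0 and 0. With each lung left out, 7 to 9 genes of the list were tested and 3 to 5 were called higher.

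Of 6 germinal center genes, 3 were tested (S1pr2, Fas and Gcsam) and 0 were called by edgeR, with 0 at an unadjusted p under 0.05 and 0 called by DESeq2.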
